A study of Homo sapiens with 6 samples.

Results

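The SLC25 genes encode the mitochondrial carriers, membrane proteins that exchange metabolites between the cytosol and the mitochondrial matrix. They were taken here as every gene of the expression table whose symbol is SLC25A followed by a number. There were 44 such genes among 23344. Of these, 37 were detected, as were 13696 genes in all. Detected means that 3 or more libraries reached a value of 1. The study compared Huh7, an established human liver cancer line, after infection with a control lentivirus (shNC) or with a lentivirus against the V1 isoform of versican (sh2), a matrix proteoglycan encoded by VCAN. Each group held 3 libraries of the same line, cultured alike, and the knockdown libraries carry the name of a single hairpin, so an effect of that hairpin and an effect of lower versican cannot be told apart. No source used here says whether the 3 libraries of a group were separate cultures, so p-values compare the groups with the scatter of these 6 libraries alone, and that scatter may be technical.

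Carriers of this family sit mostly in the inner mitochondrial membrane, are made in the cytosol from nuclear genes, and are inserted through a dedicated import machinery. Each has its own substrates: ADP and ATP, phosphate, citrate and other carboxylates, amino acids, acylcarnitines, nucleotides, cofactors, iron or glutathione. In liver cells they link energy production with the urea cycle, gluconeogenesis, fatty acid oxidation and lipid synthesis. Several share a substrate and divide it by tissue or regulation, as the ADP/ATP carriers and the aspartate/glutamate carriers do.

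Values are per gene. The table names no unit, and they were treated as FPKM, scaled for gene length and depth, so comparisons of level between genes rest on that reading. Differences are log2 fold changes of value + 1, knockdown minus control, which understate the change of low genes. The words rose and fell are kept for members with an adjusted p below 0.05 (limma, Benjamini-Hochberg over all 13696 genes tested). Means are given ± SD over n = 3 libraries.

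VCAN was lower in each knockdown library than in any control library. It stood at 4.79, 6.24 and 8.10 in control and at 1.90, 1.74 and 1.64 in knockdown replicates 1 to 3 (log2 fold change -1.39, SE 0.19, adjusted p = 0.0103). Without control replicate 2 its adjusted p was 0.0537. This value covers the whole gene and does not separate the V1 isoform. All 8 hepatocyte and hepatoma markers examined were detected, with a summed value, mostly of ALB and AFP, of 5226 to 6338 in control and 5586 to 7155 in knockdown libraries. Within that list TTR, transthyretin, was at 29.95, 25.8 and 23.6 in control and at 12.7, 10.4 and 9.97 in knockdown libraries (log2 fold change -1.19, adjusted p = 0.0077). APOA1 went the other way without overlap, at 87.6, 45.4 and 55.0 in control and 112, 120 and 150 in knockdown libraries. The remaining markers of that list overlapped between the groups. Of 7 leukocyte markers, 6 reached 1 in some library. Their summed value was 20.1 to 26.4 in control and 40.02 to 133 in knockdown libraries, with 133 in knockdown replicate 2 and at most 49.0 elsewhere. Most of this sum was LYZ, lysozyme, at 18.3 to 24.8 in control and at 44.5, 68.2 and 37.8 in knockdown replicates 1 to 3. All 7 leukocyte markers were highest in knockdown replicate 2. S100A8 was at 17.9 in that library and at 0 in the other 5. S100A9 was at 30.57 there and at most 4.13 elsewhere, and CD74 at 8.23 and at most 0.37. NKG7 was at 5.54 and at most 0.10, PTPRC at 1.96 and at most 0.16, and CD3E at 0.43 and at most 0.07. Of 4 fibroblast markers, 2 reached 1, with sums of at most 5.17, and the endothelial marker VWF stayed at or below 0.03. The part of leukocyte RNA in the results was not tested. Without knockdown replicate 2 the median log2 fold change of the detected carriers was -0.28, against -0.22 with it. The 13 mitochondrially encoded genes made up 17.6% ± 1.59 (SD, n = 3) of the summed values in control and 27.4% ± 3.67 in knockdown libraries. Since each library is scaled to a total, the same comparison was also made after rescaling to the total without those genes.

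Of the 37 detected carriers, 2 fell, 1 rose and 34 did not pass the test. The share that passed was 8.11%, and over all genes tested it was 8.08% (3.94% lower and 4.15% higher), so the family was called no more often than genes at large. An unadjusted p below 0.05 in limma was found for 15 of the 37, 14 of them lower, against 29.3% of all genes. Once rescaled without mitochondrially encoded genes, it was found for 6 of the 38 carriers then detected, against 26.3% of all genes. SLC25A5, an ADP/ATP carrier, and SLC25A11, the oxoglutarate/malate carrier, fell. SLC25A45, a less characterised carrier, rose. The log2 fold change was below 0 for 32 of the 37, or 86.5%, against 53.5% of all genes tested. The median was -0.22 for the carriers and -0.03 for all genes. After the rescaling without mitochondrially encoded genes these medians were -0.13 and 0.06, and 26 of 38 carriers were below 0, against 42.8% of all genes. Detection was judged again on the rescaled values, which gave the 38. Over all genes that rescaling changed the calls from 568 higher and 539 lower to 680 higher and 223 lower.

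The regions just before the start sites of the 3 carriers that passed are shown so that their promoters can be set side by side. Each sequence is the 250 bases before the RefSeq gene start on GRCh38.p14, written 5′ to 3′ on the gene's strand. Capitals mark matches on either strand to 3 motifs. The GC box was searched as the letters GGGCGG. The TATA box was searched as the letters TATAAA. The ATF4-type motif was searched as the letters TGATGNAA, where N is any base.
SLC25A5, chrX:119468194-119468443, plus strand: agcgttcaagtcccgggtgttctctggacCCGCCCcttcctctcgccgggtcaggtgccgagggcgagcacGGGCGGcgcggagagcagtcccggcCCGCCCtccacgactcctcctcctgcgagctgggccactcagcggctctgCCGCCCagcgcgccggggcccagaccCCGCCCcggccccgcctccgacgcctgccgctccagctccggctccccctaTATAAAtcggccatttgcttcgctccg
SLC25A11, chr17:4940047-4940296, minus strand: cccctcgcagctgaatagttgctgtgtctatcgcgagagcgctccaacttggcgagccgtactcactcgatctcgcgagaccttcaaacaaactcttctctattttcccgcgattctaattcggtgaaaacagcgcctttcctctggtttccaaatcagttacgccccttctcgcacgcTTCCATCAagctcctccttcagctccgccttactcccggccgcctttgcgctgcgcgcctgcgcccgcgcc
SLC25A45, chr11:65382647-65382896, minus strand: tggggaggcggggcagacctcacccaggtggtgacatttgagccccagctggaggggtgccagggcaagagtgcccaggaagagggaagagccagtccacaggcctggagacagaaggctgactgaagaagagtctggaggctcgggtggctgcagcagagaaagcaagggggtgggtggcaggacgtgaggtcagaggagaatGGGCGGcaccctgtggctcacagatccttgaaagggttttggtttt

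The 3 regions differed in their letters. The SLC25A5 region was 73.6% G and C, held 5 GC boxes, and had a TATA box that began 27 bases before the start. The SLC25A11 region held no GC box and had an ATF4-type match 71 bases before the start. The SLC25A45 region had 1 GC box, 46 bases before the start. RefSeq promoters were found by symbol for 31 of the 37 detected carriers. A GC box lay in 74.2% of these 31 regions, in 67.4% of the 9015 regions of genes tested and in 42.3% of all 27058 regions. The TATA box lay in 6.45%, 5.27% and 11.2%, and the ATF4-type motif in 3.23%, 1.34% and 3.20%, in the same order. An E-box (CACGTG), the letters read by MYC among other factors, was in 6 of the 31 carrier regions (SLC25A13, SLC25A33, SLC25A36, SLC25A38, SLC25A46 and SLC25A51), or 19.4%, against 8.95% of regions of genes tested and 6.46% of all regions. A CCAAT box (CCAAT) was in 15 of 31, or 48.4%, against 35.4% and 33.1%. A CRE (TGACGTCA) was in 3 of 31, or 9.68%, against 2.97% and 1.75%, and an ETS-type motif (CCGGAAGT) in 3 of 31, or 9.68%, against 7.55% and 3.63%. The motifs were chosen with the results known, the TATA box after the SLC25A5 region was read, and a match describes letters only.

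**Figure D1:**
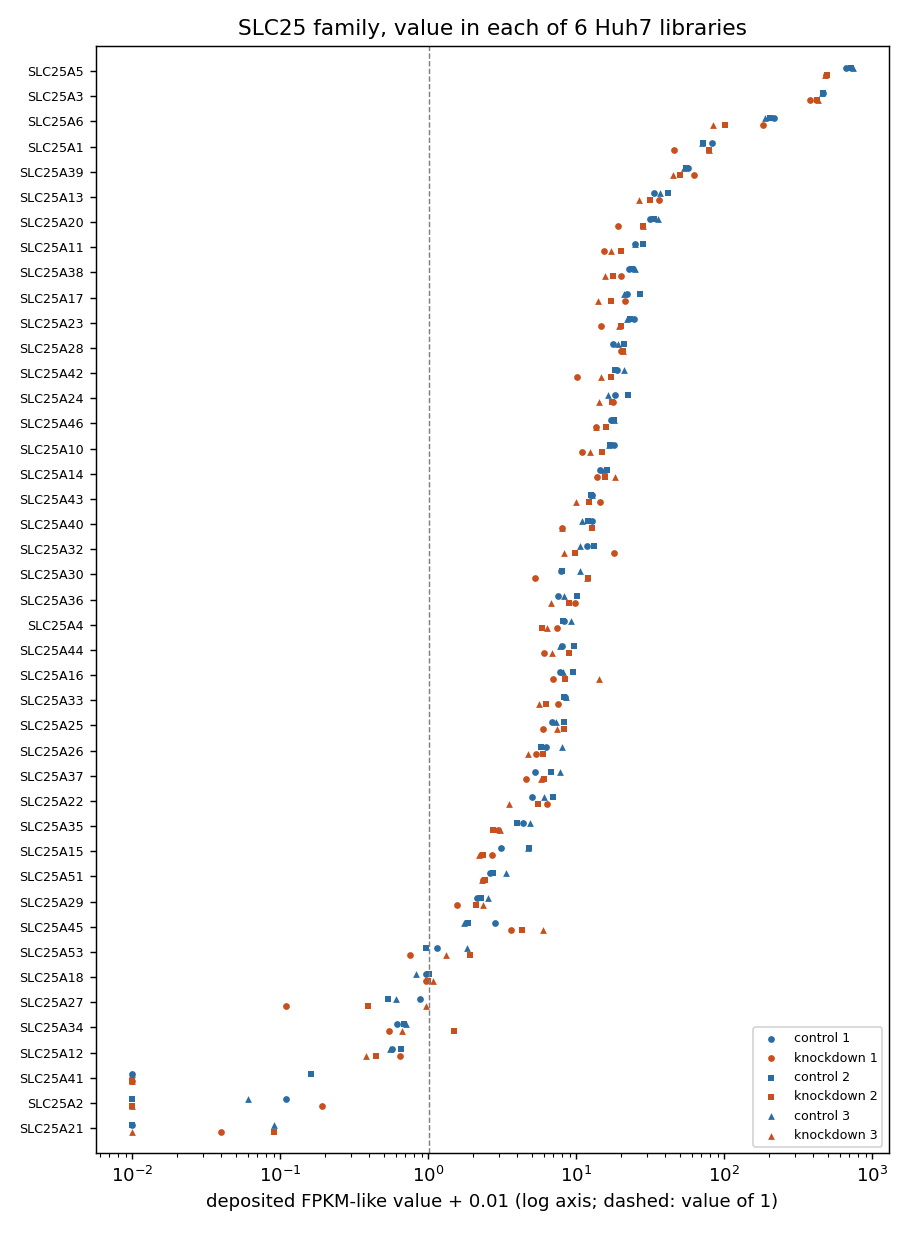
Deposited FPKM-like value of the SLC25 genes shown (rows, ordered by control mean) in each library, plus 0.01, on a log axis. Blue marks are control and orange marks knockdown libraries, and the marker shape gives the replicate. SLC25A5, SLC25A3 and SLC25A6 lie above all other members, and 7 members lie mostly below the dashed line at 1.

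Levels spanned a wide range, and a few carriers supplied most of the family's transcripts. SLC25A5, SLC25A3 and SLC25A6 together made up 71.6% ± 0.36 (SD, n = 3) of the summed family value in control and 68.4% ± 1.46 in knockdown libraries. The family sum was 1891, 1953 and 1921 in control replicates 1 to 3, and 1496, 1517 and 1455 in knockdown replicates 1 to 3. Every knockdown sum was below every control sum. Without these 3 genes the sums still did not overlap, at 538, 562 and 539 in control and 451, 501 and 461 in knockdown libraries. Once rescaled without mitochondrially encoded genes, the family sums still did not overlap, at 1732 to 1955 in control and 1482 to 1615 in knockdown libraries. The sums without the 3 genes then did overlap, at 493 to 563 and 446 to 534. Next by control mean came SLC25A1 at 74.8, SLC25A39 at 54.9 and SLC25A13 at 37.1.

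Undetected were SLC25A2, SLC25A12, SLC25A18, SLC25A21, SLC25A27, SLC25A34 and SLC25A41. SLC25A18, a glutamate carrier, lay just outside the detection limit, at 0.96, 1.00 and 0.81 in control and 0.95, 0.99 and 1.07 in knockdown libraries. SLC25A53 lay just inside it, at 1.13, 0.96 and 1.81 in control and 0.74, 1.89 and 1.31 in knockdown libraries, and is the single detected carrier below 1 in any library. SLC25A2, an ornithine carrier, SLC25A21, the oxodicarboxylate carrier, and SLC25A41, an ATP-Mg/phosphate carrier, did not exceed 0.18, 0.08 and 0.15. SLC25A27, an uncoupling-protein-like gene, ranged from 0.10 to 0.95. SLC25A34, a carrier of unsettled substrate, was between 0.53 and 0.70 except in knockdown replicate 2, where it was 1.47. SLC25A31, SLC25A47, SLC25A48 and SLC25A52 were not analysed here.

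The ADP/ATP carriers exchange cytosolic ADP for matrix ATP, and SLC25A5 is the isoform typical of dividing cells. SLC25A5 stood at 667, 718 and 736 in control and at 485, 494 and 478 in knockdown replicates 1 to 3. The groups were far apart and the knockdown libraries were close to each other. The mean was 707 ± 35.5 (SD, n = 3) in control and 486 ± 8.03 in knockdown, 31.3% lower (log2 fold change -0.54, SE 0.10, adjusted p = 0.0212). After the rescaling without mitochondrially encoded genes the log2 fold change was -0.43 (adjusted p = 0.0393). The adjusted p was 0.0889 and 0.0744 without control replicate 2 or 3, 0.0815 and 0.0789 without knockdown replicate 2 or 3, and 0.0577 with quantile normalization, while the log2 fold change stayed between -0.58 and -0.42 over 12 alternatives.

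SLC25A6, a broadly expressed ADP/ATP carrier, gave 218, 205 and 187 in control and 183, 101 and 83.6 in knockdown replicates 1 to 3. Knockdown replicate 1 lay just under the lowest control library, and the other two were far below it. With all libraries it did not pass (log2 fold change -0.80, SE 0.25, adjusted p = 0.0786). Without knockdown replicate 1 the log2 fold change was -1.13 (adjusted p = 0.000893), a removal that took the calls over all genes from 1107 to 3284. Leaving out any other library gave an adjusted p between 0.144 and 0.220, with a log2 fold change of -0.57 without knockdown replicate 3. SLC25A4, the isoform typical of heart and skeletal muscle, was low, at 8.23, 8.11 and 9.18 in control and 7.35, 5.88 and 6.34 in knockdown libraries. Its groups did not overlap, and it did not pass (log2 fold change -0.34, adjusted p = 0.146).

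The share of SLC25A5 in the sum of the 3 ADP/ATP carriers was 74.7%, 77.1% and 78.9% in control and 71.8%, 82.2% and 84.2% in knockdown replicates 1 to 3. The share of SLC25A6 was 24.4%, 22.0% and 20.1% in control and 27.1%, 16.9% and 14.7% in knockdown. Both shares overlapped between the groups, with knockdown replicate 1 on the other side of the controls from knockdown replicates 2 and 3. SLC25A4 supplied between 0.871% and 1.12% in every library. These genes are close in sequence, and the sources used here do not say how reads shared between them and with their processed copies were divided, so the split is uncertain. The 7 pseudogene rows with SLC25 names reached at most 0.49, and the 2 antisense rows at most 0.82.

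SLC25A3, which imports the phosphate needed for ATP synthesis, was steady in control libraries at 467, 467 and 459, and stood at 378, 420 and 432 in knockdown. It did not pass (log2 fold change -0.18, SE 0.10, adjusted p = 0.270). These groups did not overlap as deposited, but they did once rescaled, at 428 to 468 in control and 374 to 461 in knockdown libraries. The log2 fold change was then -0.07, and -0.00056 with quantile normalization. The ATP-Mg/phosphate carriers SLC25A23, SLC25A24 and SLC25A25 adjust the adenine nucleotide content of the matrix in response to calcium. SLC25A23 had 24.4, 23.1 and 22.1 in control and 14.61, 20.02 and 19.52 in knockdown libraries, with no overlap (log2 fold change -0.36, adjusted p = 0.146). SLC25A24 overlapped between the groups, at 18.3, 22.3 and 16.3 in control and 17.6, 17.4 and 14.3 in knockdown. SLC25A25 overlapped as well, at 6.81, 8.21 and 7.31 against 5.90, 8.22 and 7.37. In this role group 1 of 7 detected carriers fell, where 3.94% of all genes tested did. All 7 had a log2 fold change below 0, against 53.5% of all genes. Once rescaled without mitochondrially encoded genes, 6 of 7 were below 0, against 42.8% of all genes.

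**Figure D2:**
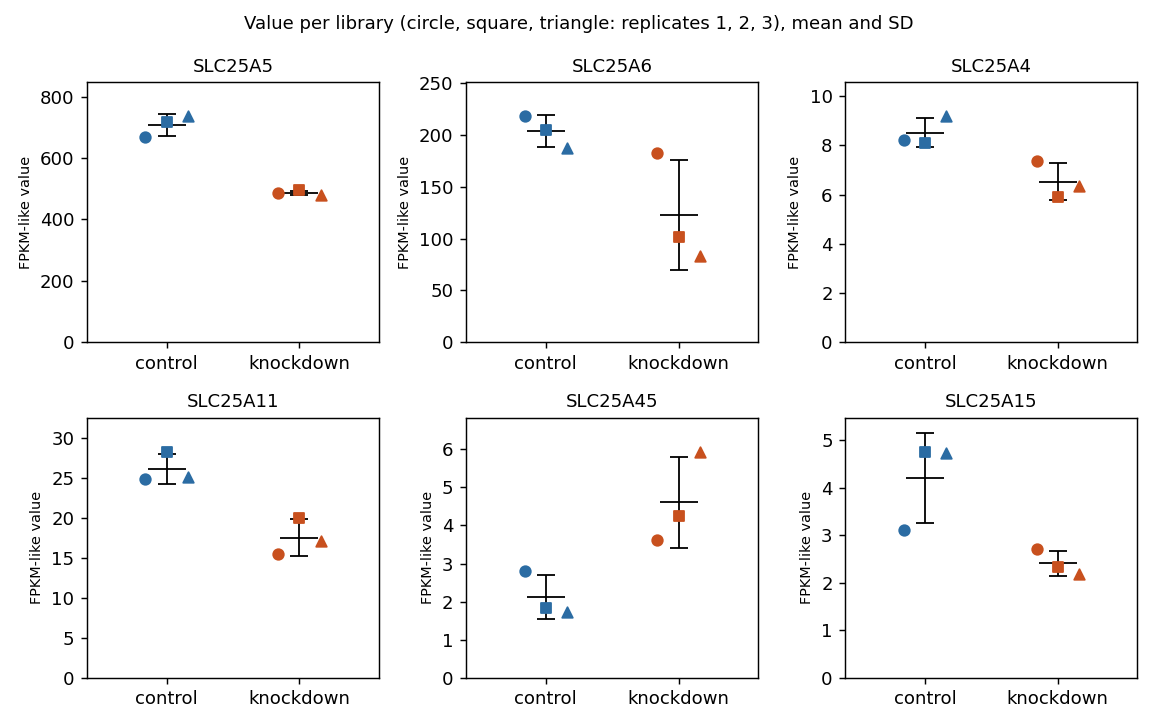
FPKM-like value of 6 carriers in each control (blue) and knockdown (orange) library, with axes from 0. Horizontal bars are means, error bars SD over 3 libraries, and the marker shape gives the replicate. SLC25A5, SLC25A11 and SLC25A45 passed the test, and SLC25A6 shows knockdown replicate 1 at 183, near the controls.

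Carboxylate carriers move intermediates of the citric acid cycle. SLC25A11 exchanges oxoglutarate for malate and is 1 of the carriers of the malate-aspartate shuttle, which brings reducing equivalents from cytosolic NADH into the matrix. Its values were 24.9, 28.3 and 25.1 in control and 15.43, 19.99 and 17.08 in knockdown replicates 1 to 3. All knockdown libraries lay below all controls. SLC25A11 fell from 26.1 ± 1.89 (SD, n = 3) to 17.5 ± 2.31, a log2 fold change of -0.55 (SE 0.13, adjusted p = 0.0418). After the rescaling without mitochondrially encoded genes it no longer passed (-0.45, adjusted p = 0.114), nor when undetected genes were kept in the fit (adjusted p = 0.0866). The adjusted p was 0.0904, 0.152 and 0.0955 without control replicates 1, 2 and 3, and 0.0757 and 0.130 without knockdown replicates 2 and 3.

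SLC25A1 exports citrate, the carbon source of cytosolic lipid synthesis. It gave 82.5, 71.2 and 70.8 in control, and 45.7, 79.2 and 78.8 in knockdown replicates 1 to 3. Knockdown replicate 1 was the lowest library and the other two lay among the controls, so the groups overlapped (log2 fold change -0.18, adjusted p = 0.604, and 0.08 without knockdown replicate 1). SLC25A20, the carnitine/acylcarnitine carrier of fatty acid oxidation, had 31.3, 33.5 and 35.8 in control and 19.1, 28.1 and 28.2 in knockdown libraries. Its groups did not overlap, and it did not pass (-0.42, adjusted p = 0.136). SLC25A10, the dicarboxylate carrier, had 18.1, 16.9 and 16.7 against 10.9, 15.0 and 12.3, likewise without overlap (-0.42, adjusted p = 0.0937). Knockdown replicate 1 was the lowest library for all 4 detected carriers of this group.

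The aspartate/glutamate carriers feed the malate-aspartate shuttle and the urea cycle, and SLC25A13, citrin, is the liver form. SLC25A13 was at 33.3, 41.5 and 36.6 in control and at 36.3, 31.6 and 26.3 in knockdown libraries, with overlap (log2 fold change -0.24, adjusted p = 0.316). SLC25A12, aralar, the form of muscle and brain, was undetected, at 0.56, 0.64 and 0.54 against 0.63, 0.43 and 0.37. SLC25A13 was 57.6 to 73.6 times SLC25A12 across the 6 libraries, which is the order of isoforms known for liver.

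SLC25A15 exchanges ornithine and citrulline for the urea cycle. It stood at 3.11, 4.76 and 4.74 in control and 2.70, 2.34 and 2.18 in knockdown replicates 1 to 3. The groups did not overlap, with control replicate 1 close to the knockdown libraries (log2 fold change -0.60, SE 0.18, adjusted p = 0.0749). SLC25A38, which brings glycine into the matrix for heme synthesis, had 22.8, 23.9 and 24.8 in control and 19.95, 17.71 and 15.53 in knockdown. These did not overlap either (-0.41, adjusted p = 0.0782). Without knockdown replicate 1, a library whose removal took the calls over all genes from 1107 to 3284, SLC25A15 and SLC25A38 had an adjusted p of 0.0392 and 0.0192.

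Of the glutamate carriers, SLC25A22 was at 4.97, 6.92 and 6.00 in control and 6.32, 5.53 and 3.50 in knockdown libraries, with overlap. It exceeded the undetected SLC25A18 by 3.27 to 7.41 times. SLC25A29, a carrier of basic amino acids, had a mean of 2.30 in control and 2.00 in knockdown, and SLC25A44, a carrier of branched-chain amino acids, 8.49 and 7.27, both with overlap. In all, 0 of 6 detected amino acid carriers passed in limma, while 2 had an unadjusted p below 0.05, as did 29.3% of all genes tested.

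Among the nucleotide and cofactor carriers 0 of 9 passed in limma, and 3 had an unadjusted p below 0.05, near the same share of all genes. Other role groups had more at that level, with 4 of 7 adenine nucleotide and phosphate carriers. It was 3 of 4 for carboxylate and acylcarnitine carriers and 3 of 5 for less characterised ones. These counts hold for the values as deposited, and the groups were not compared by a test. Once rescaled without mitochondrially encoded genes, 6 of 38 carriers in the whole family had such a p, against 26.3% of all genes. SLC25A42, which imports coenzyme A, had 18.70, 18.13 and 20.98 in control and 10.1, 17.2 and 14.8 in knockdown libraries, without overlap (log2 fold change -0.46, adjusted p = 0.143). The pyrimidine nucleotide carrier SLC25A33 was at 8.42, 8.30 and 8.57 in control and 7.50, 6.27 and 5.62 in knockdown, also without overlap (-0.35, adjusted p = 0.150, and 0.0422 without knockdown replicate 1). SLC25A36, the other carrier of pyrimidine nucleotides, overlapped, at 7.48, 10.0 and 8.24 against 9.71, 8.91 and 6.72. The ratio of SLC25A33 to SLC25A36 was 1.13, 0.828 and 1.04 in control and 0.772, 0.704 and 0.836 in knockdown libraries, with overlap.

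SLC25A17, a peroxisomal carrier of cofactors, had 21.9, 27.0 and 20.9 in control and 21.22, 17.25 and 13.96 in knockdown libraries (log2 fold change -0.41, adjusted p = 0.159, and 0.0309 without knockdown replicate 1). Knockdown replicate 1 lay among its controls. SLC25A32, a carrier linked to folate and FAD, was at 18 in knockdown replicate 1 and at 9.76 and 8.28 in the other two, around control values of 11.8, 13.2 and 10.6. For SLC25A16, a carrier linked to coenzyme A, the highest library was knockdown replicate 3 at 14.2, while the other 5 lay between 6.91 and 9.49. SLC25A26, which imports S-adenosylmethionine, overlapped, with means of 6.66 and 5.35. SLC25A51, which imports NAD, had 2.62, 2.71 and 3.33 in control and 2.32, 2.41 and 2.31 in knockdown, without overlap (-0.21, adjusted p = 0.396).

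The iron and glutathione carriers serve the making of heme, iron-sulfur clusters and the matrix redox buffer, and in limma 0 of 4 passed (0 with an unadjusted p below 0.05). SLC25A28, mitoferrin-2, had 17.81, 21.03 and 19.02 in control and 19.97, 20.53 and 20.70 in knockdown libraries, and SLC25A37, mitoferrin-1, known for its part in red cell precursors, 5.24, 6.76 and 7.71 against 4.59, 6.03 and 5.79. Mitoferrin-2 was 2.47 to 4.35 times mitoferrin-1 in every library. SLC25A39, which imports glutathione, stood at 56.5, 54.7 and 53.5 in control and at 62.2, 50.3 and 44.8 in knockdown. SLC25A40, its close relative, stood at 12.8, 12.0 and 10.9 against 7.98, 12.8 and 7.98. All 4 overlapped between the groups.

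The uncoupling-protein-like genes SLC25A14 and SLC25A30 also overlapped. In limma 0 of the 2 passed (0 with an unadjusted p below 0.05). SLC25A30 was low in knockdown replicate 1 at 5.25 and high in the other two at 11.9 and 11.7, around control values of 7.91, 8.05 and 10.5. SLC25A14 had a mean of 15.2 in control and 15.9 in knockdown libraries.

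SLC25A45, whose sequence places it near the acylcarnitine carriers, was the single carrier whose knockdown libraries all lay above the controls. It stood at 2.79, 1.84 and 1.72 in control and 3.61, 4.26 and 5.94 in knockdown replicates 1 to 3. The gap between the highest control and the lowest knockdown library was smaller than the range within each group, though larger than the control SD. SLC25A45 rose from 2.12 ± 0.59 (SD, n = 3) to 4.60 ± 1.20, or 2.17 times (log2 fold change 0.84, SE 0.21, adjusted p = 0.0453). Rescaling without mitochondrially encoded genes gave 0.93 (adjusted p = 0.0403). The call was lost without control replicates 1, 2 and 3 (adjusted p = 0.0678, 0.153 and 0.123) and without knockdown replicate 2 or 3 (0.115 or 0.153). It was also lost when undetected genes were kept in the fit (0.0968) and with quantile normalization (0.0560).

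SLC25A35, another less characterised carrier, had 4.34, 3.99 and 4.87 in control and 2.94, 2.71 and 3.04 in knockdown libraries. The groups were clearly apart, yet it did not pass (log2 fold change -0.47, SE 0.15, adjusted p = 0.0782). SLC25A46 is an unusual member that sits in the outer membrane and takes part in mitochondrial dynamics. It had 17.05, 18.03 and 17.94 in control and 13.5, 15.8 and 13.7 in knockdown, without overlap (-0.29, adjusted p = 0.156). SLC25A43 overlapped, with means of 12.7 and 12.1, as did SLC25A53.

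**Figure D3:**
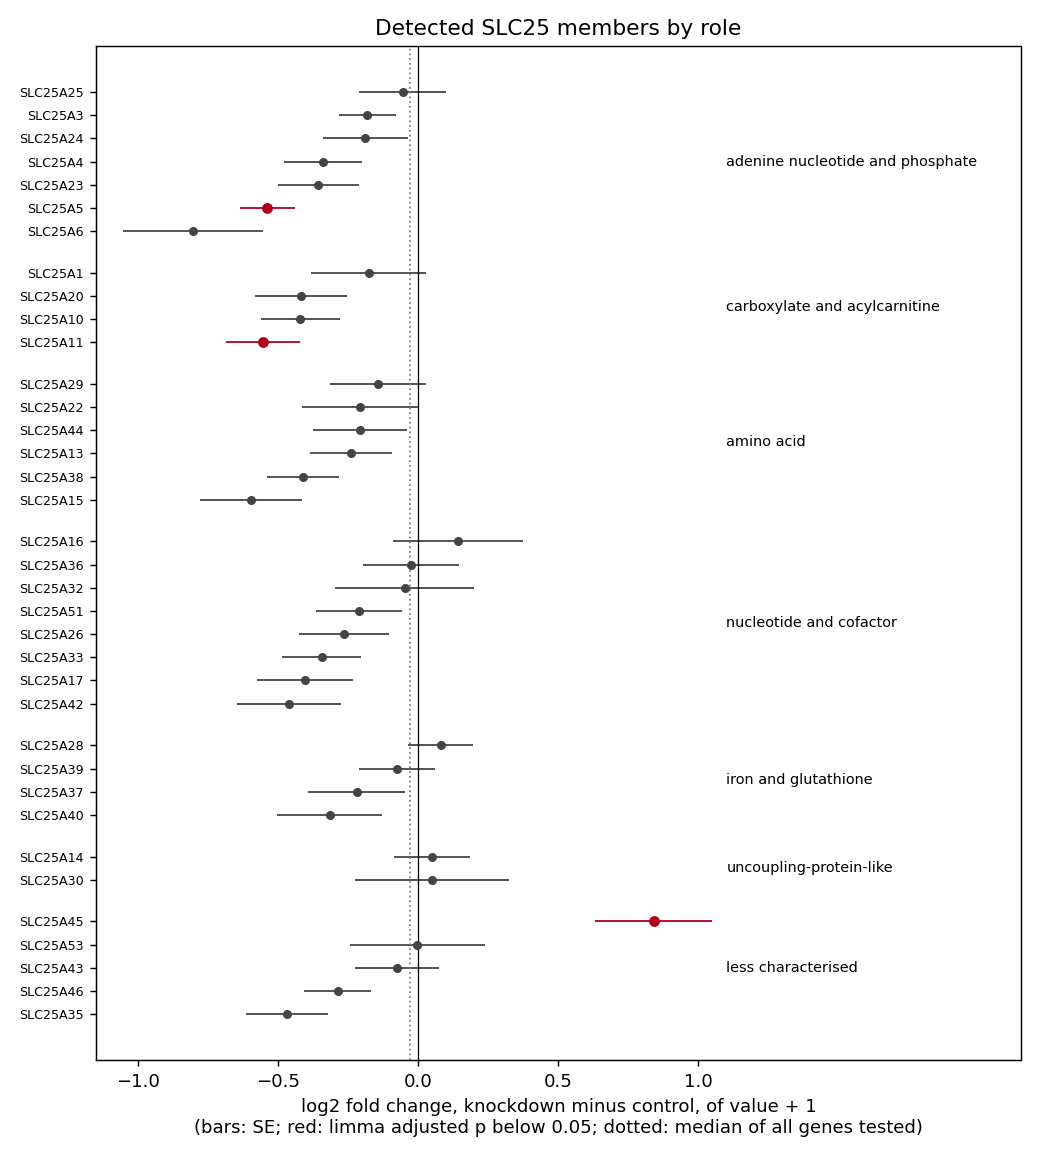
Log2 fold change (value + 1, knockdown minus control) of the detected carriers shown, by role, with SE bars. Red marks passed (adjusted p below 0.05) and the dotted line is the median of all genes tested. Most lie below 0, and SLC25A45 is the single carrier shown above 0.2.

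Across the family, groups did not overlap for 16 of the 37 detected carriers, or 43.2%, against 33.1% of all genes tested. The knockdown libraries were the lower ones for 15 (18.7% over all genes) and the higher ones for 1 (14.4% over all genes). Of the 16, 13 did not pass the test. Once rescaled without mitochondrially encoded genes, the groups were apart for 11 of the same 37, or 29.7%, against 30.2% of all genes tested. The knockdown libraries were then the lower ones for 10 (11.7% over all genes). SLC25A3, SLC25A20, SLC25A42, SLC25A46 and SLC25A51 were those that came to overlap. As deposited, the groups were apart for 5 of 7 adenine nucleotide and phosphate carriers and 3 of 4 carboxylate and acylcarnitine carriers. Once rescaled, SLC25A4, SLC25A5, SLC25A6 and SLC25A23 of the first group and SLC25A10 and SLC25A11 of the second were still apart. None of the 4 iron and glutathione carriers and neither uncoupling-protein-like gene was apart in either case. These counts describe small groups and were not compared with each other by a test.

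The knockdown libraries differed among themselves. Replicate 1 was the lowest of the 3 for 18 carriers, the highest for 14 and in between for 5. It was the lowest for SLC25A1, SLC25A20, SLC25A42, SLC25A23 and SLC25A30, and the highest for SLC25A6, SLC25A17, SLC25A32, SLC25A33 and SLC25A39. Against the control mean, the carriers had a median log2 difference of -0.27, -0.14 and -0.35 in knockdown replicates 1, 2 and 3, where all genes tested had -0.06, 0.01 and -0.04. Without knockdown replicate 1, 8 of 37 carriers passed, or 21.6%, where 24.5% of all genes did. The 8 were the 3 named above with SLC25A6, SLC25A15, SLC25A17, SLC25A33 and SLC25A38, the added 5 all lower. Without control replicate 2 or 3, or knockdown replicate 2 or 3, 0 carriers passed in limma, where 0.414%, 1.81%, 0.83% and 1.45% of all genes did. There 8, 9, 13 and 11 of 37 carriers had an unadjusted p below 0.05, against 20.6%, 23.7%, 21.1% and 18.9% of all genes.

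**Figure D4:**
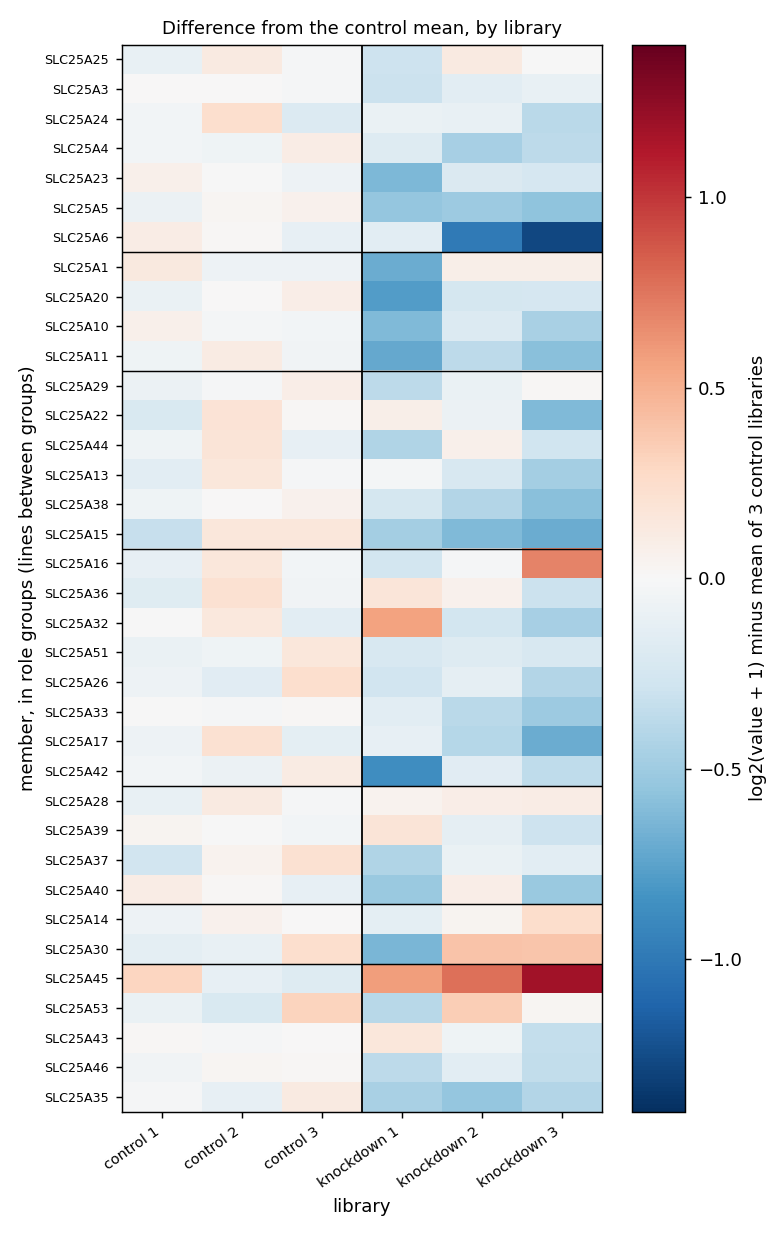
Log2(value + 1) of the detected carriers shown (rows, in role groups) minus its mean over the 3 control libraries, for each library (columns). Blue is lower and red higher than the control mean. SLC25A5 is lower to a like degree in all 3 knockdown libraries, while SLC25A6, SLC25A1, SLC25A32 and SLC25A30 differ between knockdown replicate 1 and the other two.

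Genes that work beside the carriers were taken from 12 lists chosen by function. Of 156 such genes tested, 16 rose and 14 fell, and 12 of the 16 were mitochondrially encoded. Among the 143 nuclear genes, 4 rose and 14 fell, where 4.15% of all genes tested rose and 3.94% fell. Without control replicate 2 or knockdown replicate 2, 0 of the 18 nuclear genes called with all libraries still passed in limma. All 18 kept an unadjusted p below 0.05 and their direction, where 20.6% and 21.1% of all genes had such a p. These 18 were picked by their calls in the same libraries, so that outcome was largely set by the choice. Of the 14 that fell, 5 still did once rescaled without mitochondrially encoded genes (ATP5G1, CPOX, ECHS1, MPC1 and SHMT1), and all 4 nuclear genes that rose still did. Of 4 carriers tested that bear other symbols, UCP1, UCP2, MTCH1 and MTCH2, 0 passed in limma (0 with an unadjusted p below 0.05). MTCH2, an outer membrane insertase, had means of 172 in control and 150 in knockdown libraries. Of 13 genes for import of carriers, all 13 had a log2 fold change below 0, against 53.5% of all genes, with a median of -0.37. All 13 were also below 0 under quantile normalization (median -0.30) and the rescaling (-0.26), and 12 were without control replicate 1. TIMM10, a chaperone that guides carriers across the intermembrane space, was the 1 that fell, from 185 ± 11.4 (SD, n = 3) to 122 ± 25.5 (log2 fold change -0.62, adjusted p = 0.0437). With no filter, with quantile normalization or once rescaled, 0 of the 13 passed in limma. The same held without any 1 control library and without knockdown replicate 2 or 3.

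Most enzymes that share substrates with the carriers were not called. The same held for genes at large, of which 3.94% fell and 4.15% rose. Of 21 genes of the malate-aspartate shuttle and citric acid cycle, 1 fell, MDH2, the matrix malate dehydrogenase, from 139 to 102 (log2 fold change -0.44, adjusted p = 0.0353), with a list median of -0.24, and -0.13 once rescaled. MPC1, a subunit of the pyruvate carrier, and LDHA, lactate dehydrogenase A, fell among 11 genes of pyruvate entry, by 0.73 and 0.40 on the log2 scale. NAGS, which makes the activator of the first urea cycle enzyme, fell from 3.52 to 1.74, the 1 of 8 tested in the urea cycle and ornithine list. CPS1 and OTC, the first enzymes of that cycle, were undetected, with means of at most 0.67.

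In fatty acid oxidation ECHS1, enoyl-CoA hydratase, fell from 109 to 73.5, among 16 genes with a median of 0.07. That median was 0.18 once rescaled, 0.0016 without control replicate 1, 0.0039 without knockdown replicate 2 and 0.022 without knockdown replicate 3. Of 10 lipogenesis genes, the regulator SREBF2 was the 1 that rose (log2 fold change 0.59, adjusted p = 0.0320), and 0 fell in limma. Yet 8 of the 10 had a log2 fold change below 0, against 53.5% of all genes. The list median was -0.21, and -0.11 once rescaled. SHMT1 and MTHFD1, cytosolic enzymes of the folate cycle, fell by 0.76 and 0.62 on the log2 scale among 13 folate and serine genes. CPOX, an enzyme of heme synthesis, and ISCA2, an iron-sulfur assembly factor, fell by 0.71 and 0.61 among 18 genes. The median of these 18 was -0.09, and 0.01 once rescaled in the way described above. Over all genes tested, 3.94% fell and 4.15% rose.

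Of 16 genes of ATP synthase and its inhibitor, 4 fell: ATP5G1, ATP5G3, ATP5A1 and ATP5F1, which encode subunits of the rotor ring, catalytic head and stalk. The share of all genes tested that fell was 3.94%, and 4.15% rose. With quantile normalization, or once rescaled without mitochondrially encoded genes, 1 of the 16 fell. ATP5G1 fell from 286 to 179 (log2 fold change -0.68, adjusted p = 0.0122). Of 13 regulators of mitochondrial biogenesis, POLG, the mitochondrial DNA polymerase, and MYC rose, by log2 fold changes of 0.51 and 0.97, and the list median of -0.07 became 0.02 after the rescaling. Among the 13 mitochondrially encoded genes 12 rose, with a list median of 0.72. With quantile normalization 6 of 13 rose, the median was 0.24 and 2 were below 0. When undetected genes were kept in the fit 1 passed. Leaving out control replicate 1, 2 or 3 left 2, 0 or 1 that passed in limma, and leaving out knockdown replicate 2 or 3 left 0 or 1, although all 13 stayed above 0 each time, with an unadjusted p below 0.05. MT-ND3 rose from 6362 to 12444 (log2 fold change 0.97, adjusted p = 0.0150), while MT-CO2 did not pass (0.57, adjusted p = 0.0648). How far the scaling for depth enters the lower carrier values was not tested beyond the rescaled values given above and quantile normalization. With quantile normalization the carrier median was -0.25, with 32 of 37 below 0. All genes tested then had a median of -0.03, with 53.9% below 0.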

How the data were processed

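RNA of 6 Huh7 libraries was sequenced, 3 per group, and the titles give each library's group and number. The authors deposited 1 table of values per gene, treated here as FPKM. The unit is not named, TPM of an incomplete gene set is possible, and columns sum to 851418 to 975501. Listed in the submitters' processing notes are RSEM 1.1.17, Bowtie2 2.2.6, DESeq2 1.16.1, edgeR 3.18.1, Trimmomatic 0.36 and bcl2fastq 2.19.0, and also the mouse build mm10, although the gene IDs are human. The step each tool served and the build used are therefore uncertain, and gene coordinates are given only for RefSeq promoters.

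Depth is unknown, since no counts were used, so no counting interval was computed. Genes that reached 1 in 3 or more libraries were tested on log2(value + 1) with limma 3.58.1 in R 4.3.3 (trend, robust, two-sided, Benjamini-Hochberg over all 13696 genes). An exact permutation of 3 against 3 libraries cannot go below p = 0.1. The fit was tested on simulated data. Other settings tried were no filter, a pseudocount of 0.1, quantile normalization, rescaling without mitochondrially encoded genes, the replicate number as a block, no robust moderation, and leaving out each library.

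The members, lists and tests were chosen with earlier results of these data known. Counts cover all 44 carriers, and the values of 1 carrier and 1 partner gene are not reported here. Values in every library were to be given for carriers that passed, the 6 highest, the 6 largest changes and isoform sets fixed by role, and others were added after their values were seen. Up to 4 genes of the smallest p were eligible from each list, and CPS1, OTC, UCP1, UCP2, MTCH1, MTCH2 and MT-CO2 were named besides.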

Additional observations from a re-analysis of the deposited data

How the results depend on the processing

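Of the carriers, 1 rose and 2 fell with all libraries and settings as described. The number that rose was 0 with no filter on low values, with quantile normalization and with the replicate block, and between 0 and 1 when libraries were left out in turn. The number that fell was 1 with no filter, 1 with quantile normalization and 1 with rescaling without mitochondrially encoded genes, and between 0 and 7 when libraries were left out. Over all genes, with no filter 154 rose and 63 fell, after rescaling 223 fell, and leaving out libraries gave 50 to 1573 higher and 6 to 1711 lower. Of the genes in the partner lists, 30 changed, against 3 with no filter, 16 with quantile normalization and 0 to 65 when libraries were left out. VCAN had a log2 fold change between -1.56 and -1.23 when libraries were left out. The cause of these shifts was not tested, other than that fewer libraries or more genes enter some of them.

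The replicate block rests on numbers that need not pair the libraries: deviations of same-numbered libraries correlated at 0.053, 0.105 and 0.135 across genes, and not every library correlated best with its own number. With the block 2 carriers fell and 0 rose (14 at an unadjusted p below 0.05 in limma), SLC25A45 having an adjusted p of 0.0820, and 861 of all genes were called in place of 1107.

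Of 444 log2 fold changes of carriers under alternatives, 395 kept direction and side of the threshold, 20 lost the call, 5 gained it and 24 changed sign, all 24 for carriers that were not called. With rescaling without mitochondrially encoded genes SLC25A25 was at 0.040, SLC25A32 at 0.049, SLC25A36 at 0.070, SLC25A39 at 0.029, SLC25A43 at 0.023 and SLC25A53 at 0.059. The other 18 sign changes came from leaving out a library. There the log2 fold change ranged from -0.31 (without knockdown replicate 2) to 0.081 (without knockdown replicate 1) for SLC25A1, -0.049 to 0.143 for SLC25A14, -0.133 to 0.338 for SLC25A16, -0.149 to 0.061 for SLC25A25 and -0.129 to 0.393 for SLC25A30. It ranged from -0.359 to 0.158 for SLC25A32, -0.123 to 0.113 for SLC25A36, -0.205 to 0.027 for SLC25A39, -0.197 to 0.049 for SLC25A43 and -0.181 to 0.185 for SLC25A53. With unknown depth, no counting limit can be given for the low carriers.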
